A study of Bos taurus with 81 samples.

Results

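Unplaced scaffolds are assembled stretches of the cattle genome that have not been assigned to a chromosome. All peaks on sequences named other than 1 to 29 or X were taken: 104388 of the 4930009 peaks of the 81 deposited lists, or 2.12%, on 1558 scaffolds. The length of a scaffold was the highest peak end found on it in any list, so lengths are lower limits and a scaffold with no peak in any list is not included. By that measure the scaffolds spanned 67.9 Mb, which is 2.52% of the total, beside 2627 Mb of placed chromosomes. The median scaffold was 20.2 kb long, with quartiles of 11 and 36.6 kb and a range of 0.35 to 9211.8 kb. Single scaffolds are described from 10 kb upward, which kept 1222 scaffolds and 65.9 Mb.

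The series profiled chromatin in cattle oocytes and in embryos produced in vitro. Libraries came from germinal vesicle oocytes (GV), from embryos with 2, 4 or 8 cells (2C, 4C, 8C) taken 32, 44 and 56 h after insemination, from morulae (MO, 122 h), from whole blastocysts (BL, 172 h), and from the inner cell mass (ICM, isolated by immunosurgery) and trophectoderm (TE, cut off with a micro scalpel) of blastocysts. A further group, 8A, was 8-cell embryos grown with α-amanitin at 50 μg/ml, an inhibitor of RNA polymerase II; the other groups were grown without it. CUT&Tag, in which a tagged transposase cuts DNA beside an antibody-bound mark, gave 2 libraries per group for each of H3K9me3, H3K27me3, H3K4me3 and H3K27ac, and ATAC-seq, which reads open chromatin, gave 3 libraries each of BL, ICM and TE. A library pooled about 500 oocytes or 1000 to 1500 blastomeres, and the labels name neither the animals nor the cultures, so errors and p-values measure the spread between these libraries only. ICM and TE preparations may hold some cells of the other lineage, which peak lists do not show.

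H3K9me3 is the histone mark of constitutive heterochromatin and is known for covering satellite and transposon repeats. H3K27me3 is laid down by the Polycomb complex on silent developmental genes, H3K4me3 marks active promoters, and H3K27ac marks active promoters and enhancers. Unplaced scaffolds of mammalian assemblies often consist of sequence that is repeated elsewhere, which makes them hard to place. In cattle embryos the main onset of transcription falls around the 8-cell stage. Which repeats or genes these scaffolds hold was not looked up, because no genome of the build of the lists was used here, and no sequence is shown.

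The lists hold peak positions and a score, so read depth is unknown and no interval for counting error can be given. The lists held 11209 to 23813 peaks for H3K9me3, 14438 to 31472 for H3K27me3, 22745 to 185272 for H3K4me3, 60270 to 163589 for H3K27ac and 100390 to 154483 for ATAC. Because depth may differ between lists, the share of scaffold bases under peaks is given together with the same share of placed chromosomes, and their ratio is called relative coverage. Scaffold peaks carried dense scores. Of the H3K9me3 peaks on scaffolds, 33.2% to 53.3% were among the 10% of their list with the highest score per base, against 2.08% to 8.09% of those on placed chromosomes. For H3K27me3 the scaffold range was 37.6% to 59.3%. For H3K4me3 it was 31.3% to 49.4% in the GV to 8C libraries and 0.966% to 3.95% in the MO, BL, ICM and TE libraries. How the authors treated reads that align to several places is not given in the sources used here, and its part in these values was not tested.

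H3K9me3 covered a small share of the scaffolds in oocytes and over 20% of them in every library from MO on. The share was 7.64% and 7.10% in the 2 GV libraries, 12.1% and 9.62% in 2C, and 10.5% and 9.33% in 4C. It was 16.0% and 17.8% in 8C, 24.3% and 23.8% in MO, and 28.5% and 23.4% in BL. ICM libraries had the highest mean, at 32.1% and 27.6%, and TE libraries had 25.6% and 21.5%. Each MO, BL, ICM and TE library lay above each 8C library, and each 8C library lay above each GV, 2C and 4C library, while 2C and 4C overlapped. The groups MO, BL and TE also overlapped. These levels chose the subject and are a description with no test.

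**Figure D1:**
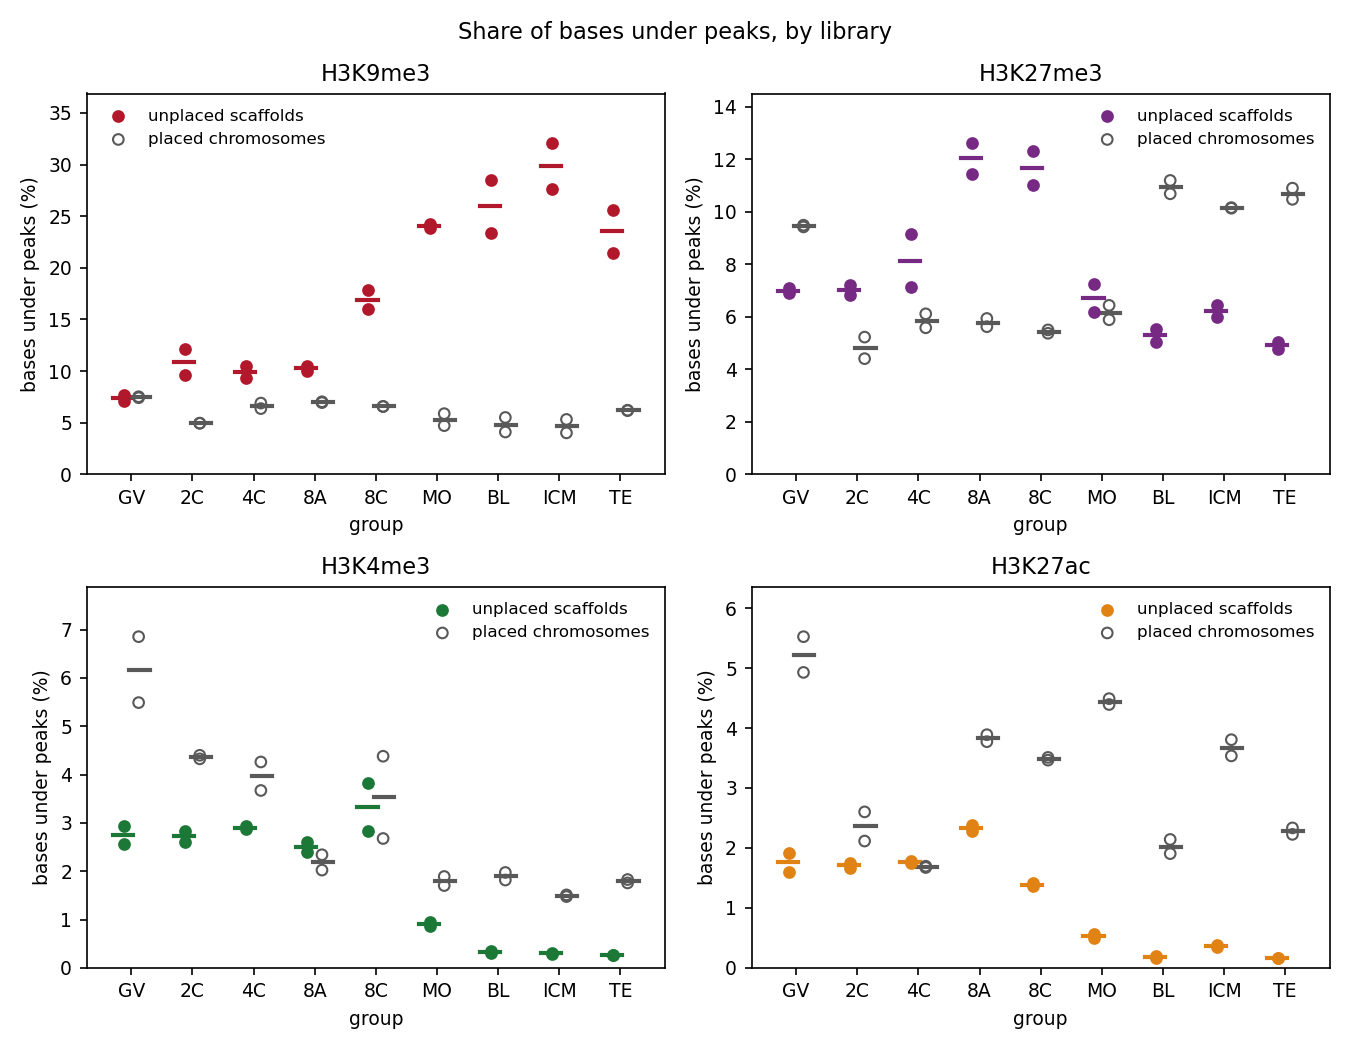
Share of bases under peaks (%, vertical axis, each panel with its own scale from 0) for 4 histone marks in each library, by group. Filled points are unplaced scaffolds, open points placed chromosomes, and short lines are means of 2 libraries. On scaffolds H3K9me3 lies between 7.10% and 17.8% in GV to 8C and between 21.5% and 32.1% in MO to TE, whereas its placed share stays between 4.02% and 7.52%, and H3K4me3 and H3K27ac on scaffolds are lowest from MO on.

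Placed chromosomes did not share this course. Their H3K9me3 share was 4.94% to 7.52% in the 8 early libraries (GV, 2C, 4C, 8C) and 4.02% to 6.21% in the 8 late ones (MO, BL, ICM, TE). Relative coverage of the scaffolds was therefore 0.987 ± 0.0423 (SD, n = 2) in GV, 2.20 ± 0.354 in 2C, 1.50 ± 0.213 in 4C and 2.58 ± 0.199 in 8C. It was 4.60 ± 0.771 in MO, 5.60 ± 1.92 in BL, 6.59 ± 1.98 in ICM and 3.81 ± 0.495 in TE. In oocytes the mark covered about the same share of the scaffolds as of the placed chromosomes, and from MO on the libraries lay at 3.46 or more. On the log2 scale the mean of the late groups exceeded that of the early groups by 1.55, with a pooled replicate SD of 0.271. Libraries of one group differed in both shares in BL and ICM. ICM replicate 1 had the largest scaffold share, 32.1%, with a placed share of 4.02%, and BL replicate 1 had 28.5% with 4.10%; the part of depth or background in this was not tested. Of all H3K9me3 peak length, the scaffolds held 2.49% ± 0.104 (n = 2) in GV and 14.5% ± 3.74 in ICM.

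**Figure D2:**
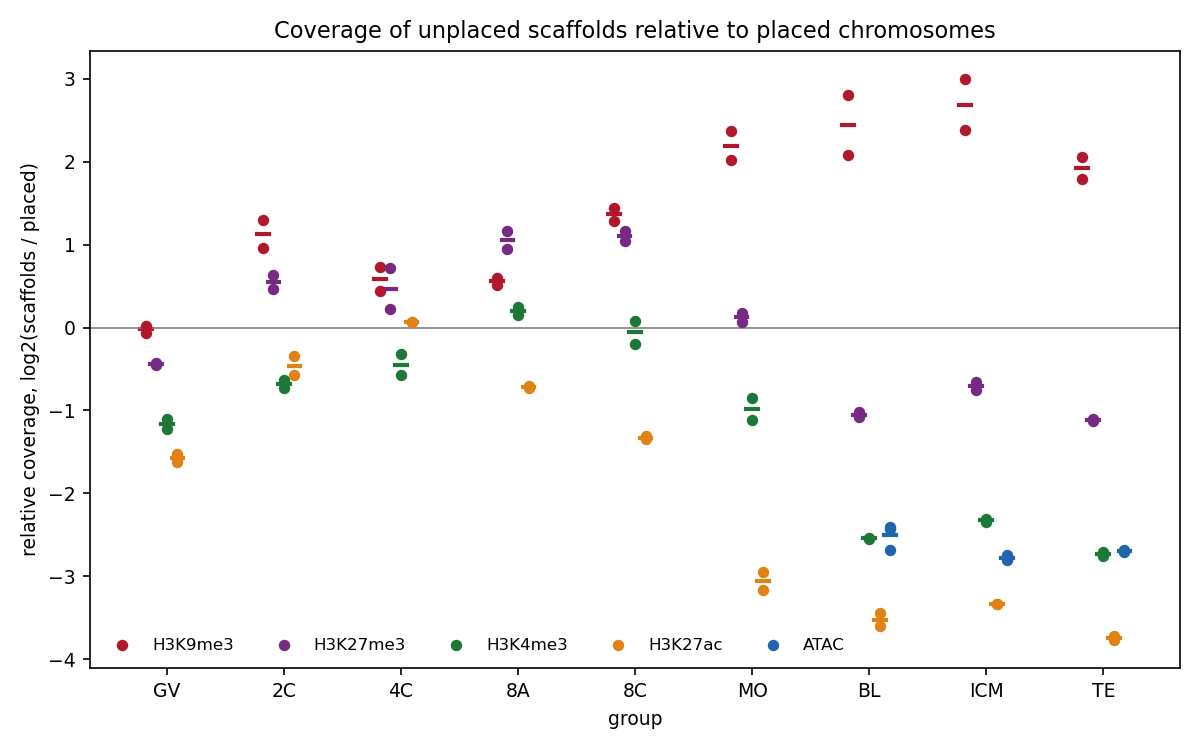
Relative coverage, log2 of the scaffold share divided by the placed share of bases under peaks (vertical axis), for each library (points) of 5 assays by group, with means as short lines. H3K9me3 is near 0 in GV and 1.79 or more in all libraries from MO on, H3K27me3 has its highest values in 8A and 8C, and H3K27ac lies below its GV level from MO on and H3K4me3 from BL on.

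The H3K9me3 gain was spread over most scaffolds. A peak was present on 436 to 910 of the 1558 scaffolds in the early libraries and on 1094 to 1430 in the late ones. Scaffolds covered over at least 50% of their length numbered 67 and 61 in the GV libraries, 181 and 216 in 8C, 304 and 300 in MO, and 470 and 336 in ICM. The mean of the late groups was above that of the early groups on 1452 scaffolds, or 93.2%, and below it on 33. Together these scaffolds gained 9.95 Mb of H3K9me3, and the 10 with the most gave 10.2% of that. It took 167 scaffolds, 10.7% of all, to reach 50% of the gain. Scaffolds under 10 kb had the highest share and the 31 of 200 kb or more the lowest in every group. Those under 10 kb went from 15.0% in GV to 50.0% in ICM, those of 20 to 50 kb from 7.46% to 34.3%, and those of 200 kb or more from 4.06% to 13.9%. Lengths taken from peaks lift the share most on short scaffolds, and how much was not tested.

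A strict reading of the rise asks that a scaffold be covered more in each of the 8 late libraries than in each of the 8 early ones. Of the 1222 scaffolds of 10 kb or more, 290 met it (23.7%), beside 1521 of the 52526 windows of 50 kb on placed chromosomes (2.9%). The opposite order was met by 0 scaffolds (0%) and by 3633 placed windows (6.92%). Windows and scaffolds differ in length, so the shares are side by side only. Among features that had any H3K9me3 peak, 24.8% of 1168 scaffolds and 5.02% of placed windows met the rule. The remaining 54 scaffolds had no H3K9me3 peak in any of the 16 libraries grown without inhibitor. The closest on the inside was NKLS02002208.1, whose lowest late share exceeded its highest early share by 0.0521 points, and the closest on the outside were NKLS02002027.1 and NKLS02002125.1, with a margin of 0. On NKLS02002027.1 the highest early and the lowest late share were both 100%, so a scaffold filled early cannot meet the rule. In steps of single stages, both 2C libraries exceeded both GV libraries on 388 scaffolds (31.8%, placed 4.35%) and the reverse held on 48 (3.93%, placed 14%). Both MO libraries exceeded both 8C libraries on 578 (47.3%, placed 20.3%), with the reverse on 30 (2.45%, placed 12.4%). Among features with an H3K9me3 peak in MO or 8C, MO was higher on 55.5% of 1042 scaffolds and 47.8% of placed windows. There 8C was higher on 2.88% and 29.3%.

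The 290 rise scaffolds made up 28.7 Mb, or 42.3% of scaffold length, and held 44.4% of the gain. The longest of all scaffolds, NKLS02002208.1 (9211.8 kb), is one of them by its margin of 0.0521 points and is nearly bare of H3K9me3. It makes up 32.0% of their length, and without it, a setting chosen after the data were seen, the other 289 made up 33.3% of the remaining scaffold length and held 44.3% of the gain. The median length of the 290 was 41.4 kb, against 23.2 kb for the other 932. With NKLS02002208.1 included, the H3K9me3 share of the rise scaffolds was 4.50% ± 0.145 (n = 2) in GV, 12.5% ± 0.597 in 8C, 21.6% ± 0.184 in MO and 26.7% ± 2.79 in ICM. The others had 9.18% ± 0.587, 19.6% ± 1.77, 25.0% ± 0.360 and 31.2% ± 3.18. Without NKLS02002208.1 the rise scaffolds had 6.58% ± 0.213, 18.3% ± 0.866, 31.5% ± 0.281 and 39.2% ± 4.13. Their share was thus below that of the others in all 4 groups with this scaffold, and below it in GV and 8C but above it in MO and ICM without it. By the rule, the lowest mean falls in an early group and the highest in a late one. GV had the lowest mean on 267 of the 290, and ICM had the highest on 180. The same counts over all 1222 scaffolds are not given here, so neither is shown to be particular to the 290. Over all scaffolds GV also had the lowest mean share (7.37%) and ICM the highest (29.8%). Single early libraries left 473 to 868 of the 1222 scaffolds without a peak. On 74 of the 290 no early library had one, a count that is also not given over all 1222. On 160 both 8C libraries already exceeded both 4C libraries, so on these the mark was higher before MO. That is 55.2% of the 290, beside 47.1% of all 1222 scaffolds. The count rested on the 8C libraries: it was 439 without 8C replicate 2 and 608 (49.8%) with both 8C libraries left out, beside 1653 placed windows (3.15%) in that last setting, which was chosen after the data were seen.

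The 10 rise scaffolds with the largest gain were between 115.6 and 1102.75 kb long. NKLS02000611.1 (216.8 kb) gained 109 kb. Its H3K9me3 share was 5.44% and 1.94% in GV, 17.4% and 17.0% in 4C, 33.9% and 44.0% in 8C, 67.1% and 64.2% in MO, and 78.7% and 71.0% in ICM. Coverage of this scaffold was thus a few percent in the oocyte and over 60% in the morula. NKLS02001440.1 (166.6 kb, a gain of 77.8 kb) had 7.80% and 8.52% in GV, 54.0% and 63.5% in 8C, and 94.8% and 82.8% in ICM. NKLS02001525.1 (115.6 kb) had 0.519% and 0 in GV, 31.5% and 46.2% in 8C, 50.5% and 48.1% in MO, and 91.7% and 69.9% in ICM. Both were close to fully covered in ICM replicate 1 and less so in replicate 2. NKLS02000305.1 (158.4 kb) went the same way, from 8.08% and 6.31% in GV to 36.6% and 39.4% in 8C and 90.0% and 73.2% in ICM.

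On NKLS02000789.1 (429.2 kb), NKLS02001177.1 (292.2 kb), NKLS02001547.1 (232.4 kb) and NKLS02001991.1 (196.6 kb) the course was alike but shallower. NKLS02001547.1 already had 20.2% and 23.9% in GV and reached 57.2% and 57.9% in MO. NKLS02001177.1 had 6.30% and 4.38% in GV, 16.4% and 22.9% in 8C, and 32.4% and 31.2% in MO. On NKLS02001991.1 most of the coverage was present by 8C, with 48.2% and 50.1% there, 52.8% and 54.0% in MO and 70.9% and 62.4% in ICM.

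These 8 scaffolds, grouped after their values were seen, had a similar course of H3K27me3. In the GV libraries it covered none of 7 of them and under 1% of NKLS02000789.1, it covered between 4.84% and 31.8% in the 8C libraries, and it covered none in the BL, ICM and TE libraries. On NKLS02000611.1, for instance, H3K27me3 was 0 in GV and 2C, 0 and 8.49% in 4C, 10.2% and 20.1% in 8C, and 0 from MO on. Absence in GV and late was the usual state. Of all 1222 scaffolds, 977 and 941 had no H3K27me3 in the GV libraries and 1001 had none in each BL library. In ICM 971 and 1006 had none, in TE 980 and 995, and in 8C 650 and 657. Over the scaffolds as a whole, 88.3% of the bases under H3K27me3 in both 8C libraries were also under H3K9me3 in both, and 86.1% on placed chromosomes. None of the 8 had an ATAC peak in any library, which was also so for 1033 (84.5%) of the 1222 scaffolds.

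The other 2 of the 10 differed from these. NKLS02002207.1 (1102.75 kb, with the largest gain among the rise scaffolds, 152 kb) had H3K9me3 of 2.88% and 2.77% in GV, 7.93% and 6.57% in 8C, 22.6% and 26.6% in MO, and 14.2% and 13.7% in TE. H3K27me3 was high in its oocyte libraries, at 29.5% and 28.6%, was 13.4% and 14.8% in 8C, and was still present in MO, at 19.0% and 18.7%. NKLS02002063.1 (157.6 kb) carried next to no H3K9me3 before MO: 2.54% and 0 in GV, 1.40% and 0 in 4C, and 0 in both libraries of 2C, 8A and 8C. It then had 35.9% and 40.7% in MO, 29.4% and 35.7% in BL, 40.6% and 49.0% in ICM and 34.4% and 36.7% in TE. In oocytes this scaffold was marked instead by H3K27me3 (31.5% and 33.4%), H3K27ac (19.0% and 21.7%) and H3K4me3 (11.4% and 12.3%). H3K27me3 was down to 3.55% and 0 in 8C and back at 27.8% and 20.9% in MO, so H3K27me3 returned in the stage in which H3K9me3 was first high. H3K4me3 was 1.94% and 2.63% in 8C and 0 in each MO, BL, ICM and TE library.

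The largest gain of all scaffolds, 227 kb, lay on NKLS02000344.1 (906.8 kb), which is outside the strict rule with a margin of -2.12 points and is named after its values were seen. H3K9me3 covered 4.63% and 2.82% of it in GV, 35.4% and 38.3% in 8C, 39.8% and 36.6% in MO, 58.2% and 49.3% in ICM and 44.2% and 36.2% in TE. TE replicate 2 and MO replicate 2 lay below 8C replicate 2, which kept it from meeting the rule. In 8A it was 18.6% and 18.2%, near 4C (19.5% and 21.0%).

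**Figure D3:**
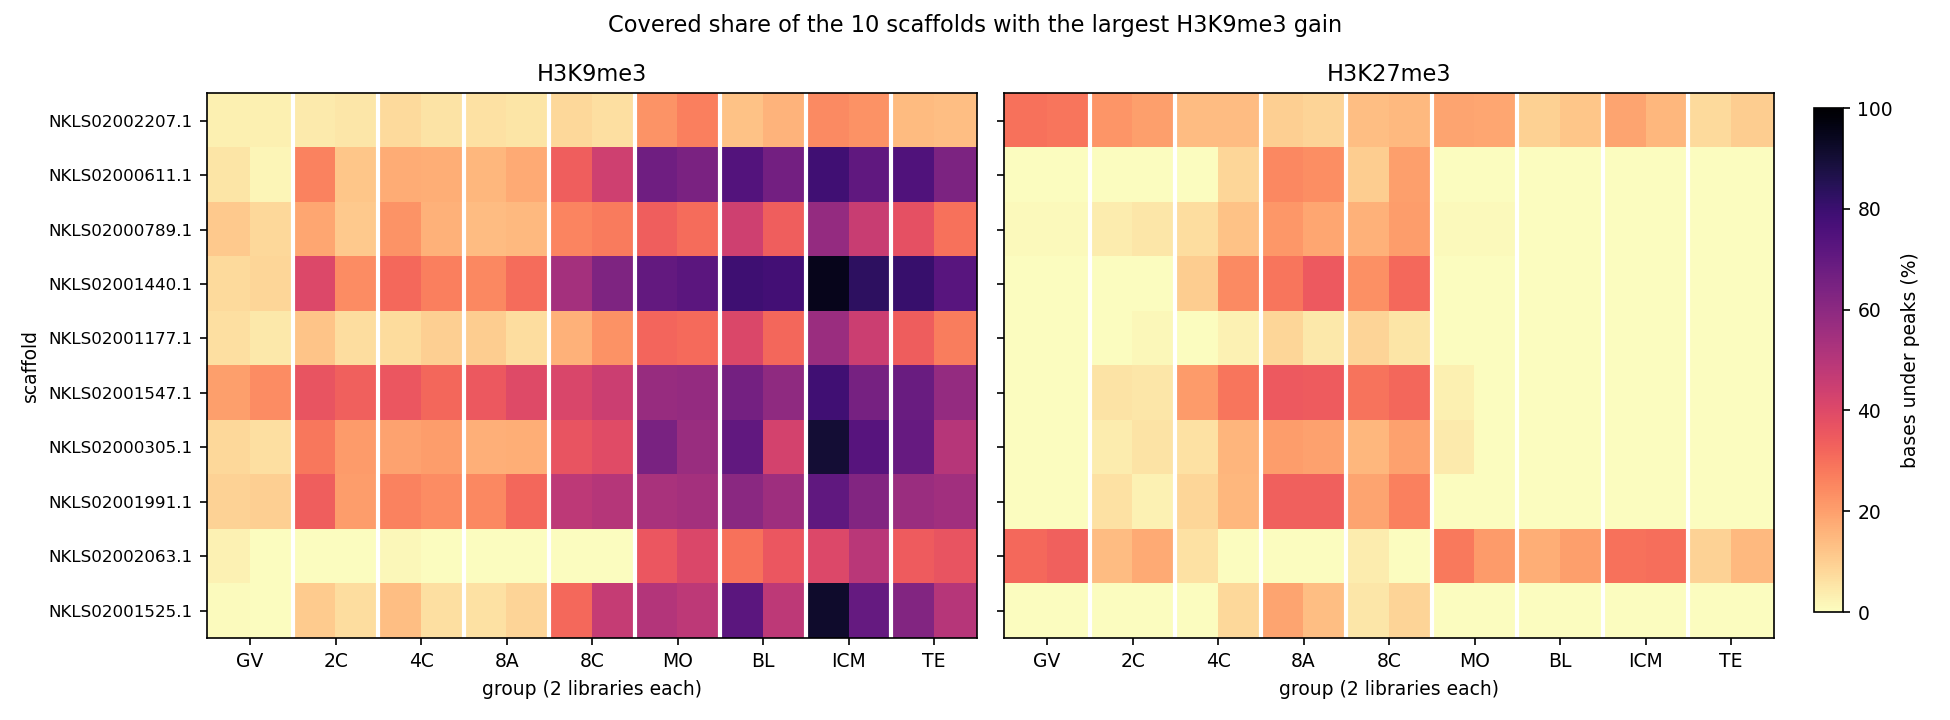
Bases under H3K9me3 (left) and H3K27me3 (right) peaks, in percent of scaffold length by colour (0 to 100), for the 10 rise scaffolds with the largest gain (rows) in the 2 libraries of each group (columns). In 8 rows H3K27me3 is under 1% in GV, present in 8C and 0 in BL, ICM and TE, while NKLS02002207.1 and NKLS02002063.1 carry it in GV and from MO on.

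On the 33 scaffolds where H3K9me3 was lower late than early, the summed difference was -0.0529 Mb. Most of it, -37.8 kb, lay on NKLS02001494.1 (568.2 kb), which had 18.1% and 15.0% in GV, 12.0% and 7.50% in 8C, 6.58% and 10.1% in MO, 0.563% and 2.50% in BL and 0 and 1.34% in TE. This scaffold had ATAC peaks in all 9 libraries, over 1.86% to 2.80% of its length in BL, and H3K27ac over 3.26% and 2.89% in ICM. NKLS02001154.1 (31.0 kb) had 40.0% and 43.9% in GV, none in 2C and 4C, and 7.74% and 10.3% in MO. NKLS02001155.1 (87.4 kb) had 15.3% and 16.5% in GV and none in BL and TE. On both, the GV libraries had the highest shares.

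In embryos grown with α-amanitin, H3K9me3 on the scaffolds was at the level of 4C embryos. The share was 10.0% and 10.5% in the 8A libraries, below both 8C libraries (16.0% and 17.8%) and close to the 4C pair (10.5% and 9.33%). On placed chromosomes the mean was 6.99% in 8A, 6.57% in 8C and 6.63% in 4C. Relative coverage in 8A was lower than in 8C by a log2 difference of -0.81, which is 2.98 times the pooled replicate SD, and the libraries did not overlap. Against 4C the difference was -0.02 and the libraries overlapped. With 2 libraries against 2, an exact permutation test cannot pass 0.05, so no single mark was tested. Jointly over the 4 marks, the bases covered on scaffolds separated 8A from 8C (one-sided exact permutation test on Jaccard indices, p = 0.0123, adjusted p = 0.0123, the smallest that 81 arrangements allow). H3K9me3, whose levels on scaffolds chose the subject, is among these marks, and the joint test without it is not given here. The mean Jaccard index, the shared part of the combined covered bases, was 0.690 between 8A and 4C for H3K9me3, 0.557 between 8A and 8C and 0.541 between 8C and 4C. Replicates of one group had 0.663 to 0.760.

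The same contrast held scaffold by scaffold. H3K9me3 was higher in both 8C libraries than in both 8A libraries on 547 of 1222 scaffolds (44.8%), beside 4.05% of placed windows, and higher in both 8A libraries on 13 (1.06%), beside 6.71%. Against 4C, 8C was higher on 576 (47.1%, placed 3.53%) and lower on 9 (0.736%, placed 3.81%). Between 8A and 4C the counts were more even, with 161 scaffolds higher in 8A (13.2%, placed 5.93%) and 68 higher in 4C (5.56%, placed 3.53%). Among features with an H3K9me3 peak in 8A or 4C, 8A was higher on 27.1% of 594 scaffolds and 23.7% of placed windows. There 4C was higher on 11.4% and 14.1%. Of the 290 rise scaffolds, 155 were higher in both 8C libraries and 4 in both 8A libraries. On NKLS02000611.1 the 8A libraries had 15.1% and 17.8% against 33.9% and 44.0% in 8C, and on NKLS02001525.1 they had 6.06% and 8.65% against 31.5% and 46.2%. NKLS02001547.1 was an exception in size, with 35.4% and 39.7% in 8A and 41.0% and 44.6% in 8C.

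**Figure D4:**
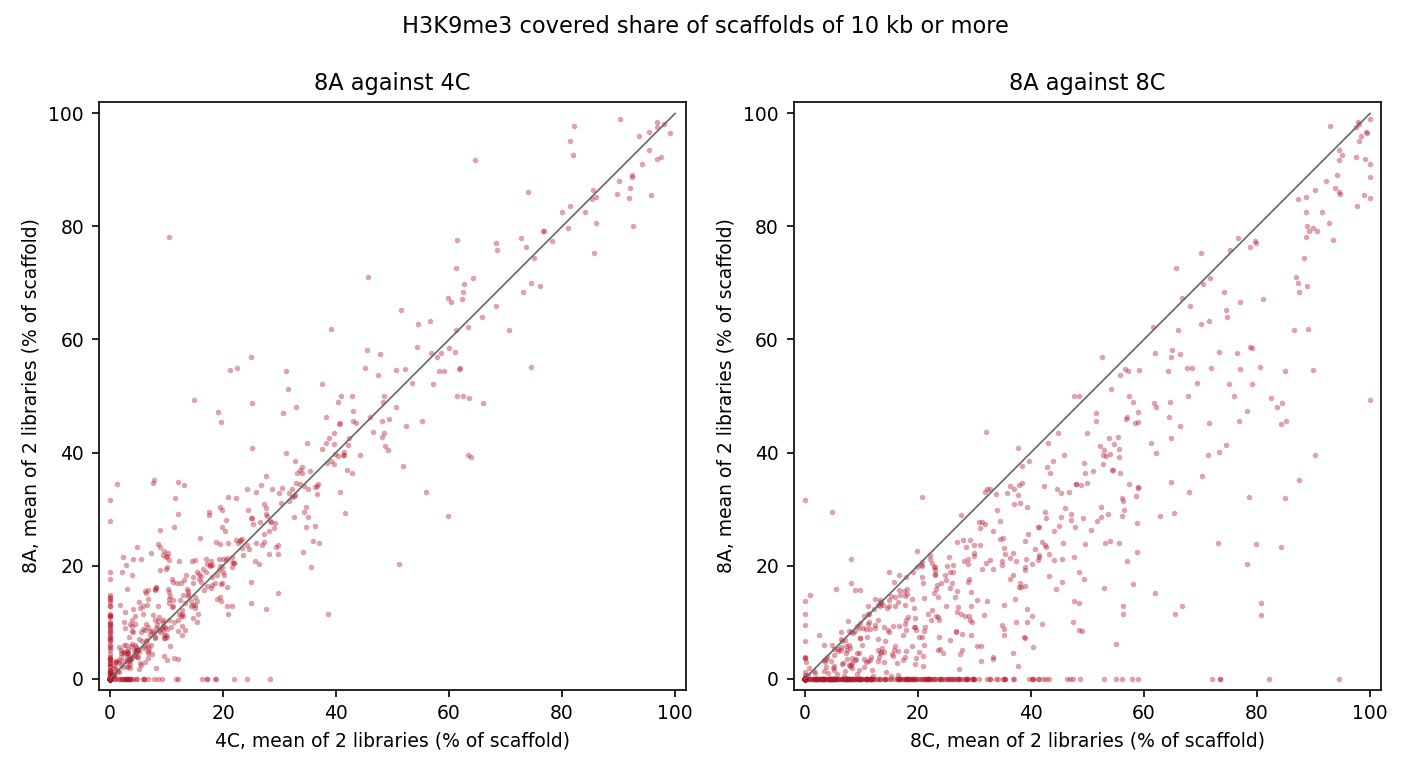
H3K9me3 covered share of each scaffold of 10 kb or more (points, mean of 2 libraries, % of scaffold length) in 8A (vertical axes) against 4C (left) and 8C (right). The line marks equal shares. The points lie on both sides of the line against 4C and mostly below it against 8C, where 547 scaffolds were higher in both 8C libraries and 13 in both 8A libraries.

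H3K27me3 on the scaffolds was highest in 8-cell embryos, with and without the inhibitor. The share was 6.91% and 7.08% in GV, 7.12% and 9.17% in 4C, 11.0% and 12.3% in 8C, and 12.6% and 11.5% in 8A. It was 7.25% and 6.19% in MO, 5.05% and 5.53% in BL, 6.44% and 6.00% in ICM and 4.78% and 5.06% in TE. Both 8-cell groups thus lay above all others, and they overlapped each other (log2 relative coverage of 8A minus 8C, -0.04). Relative coverage differed between the 8 groups grown without inhibitor (permutation test over 16 libraries, p = 2e-05, adjusted p = 2.67e-05), from 0.460 ± 0.00525 (n = 2) in TE to 2.15 ± 0.132 in 8C. The placed share differed too, with a mean of 10.7% in TE and 5.44% in 8C. Both 8C libraries exceeded both 4C libraries on 347 scaffolds (28.4%, placed 4.13%), and both 8A libraries did so on 391 (32%, placed 4.8%). The reverse orders were met by 11 (0.9%, placed 7.01%) and 24 (1.96%, placed 5.71%). Both 8C libraries exceeded both MO libraries on 374 (30.6%, placed 10.2%), and MO was the higher on 86 (7.04%, placed 15.4%). Between the 8-cell groups, 119 scaffolds were higher in 8C (9.74%, placed 4.43%) and 156 in 8A (12.8%, placed 6.66%). The share of scaffold H3K9me3 that lay under H3K27me3 was 89.5% in 8A, 59.8% in 8C, 21.2% in MO and 13.3% in ICM. On placed chromosomes it was 70.4%, 68.6%, 40.1% and 58.3%. The share of scaffold H3K27me3 under H3K9me3 was 77.8% in 8A, 88.3% in 8C, 78.8% in MO and 62.6% in ICM. On placed chromosomes that was 88.0%, 86.1%, 31.8% and 21.4%. On scaffolds the first share is limited by the smaller extent of H3K27me3 late. That mark covered 3.80 Mb in both MO libraries and 3.64 Mb in both ICM libraries, against 14.1 and 17.2 Mb of H3K9me3.

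The marks of active chromatin were present on the scaffolds until 8C and scarce from BL on. H3K4me3 covered 2.56% and 2.93% in GV, 2.93% and 2.88% in 4C, and 2.83% and 3.82% in 8C. It covered 0.948% and 0.870% in MO, 0.312% and 0.339% in BL, 0.291% and 0.305% in ICM and 0.270% and 0.269% in TE. Each early library was thus above each late one. Placed chromosomes also had less H3K4me3 late, with 2.68% to 6.85% in the early libraries and 1.47% to 1.97% in the late ones. Relative coverage was 0.447 ± 0.0281 (n = 2) in GV, 0.965 ± 0.130 in 8C, 0.508 ± 0.0683 in MO and 0.172 ± 0.00027 in BL. It differed between the 8 groups grown without inhibitor (permutation test over 16 libraries, p = 1e-05, the smallest that 100000 resamples can give, adjusted p = 2e-05). On NKLS02000125.1 (264.0 kb) H3K4me3 covered 21.2% and 23.1% in GV, 15.7% and 24.8% in 8C, 2.37% and 2.44% in MO and 1.19% and 0.852% in TE. There H3K27me3 was 3.33% and 4.02% in 8C and 40.9% and 38.9% in MO, and H3K9me3 was 0.455% and 0 in 8C and 34.3% and 34.8% in TE.

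H3K27ac covered 1.61% and 1.92% of the scaffolds in GV, 1.75% and 1.78% in 4C and 1.41% and 1.36% in 8C. It covered 0.501% and 0.568% in MO, 0.158% and 0.197% in BL, 0.377% and 0.352% in ICM and 0.169% and 0.172% in TE. No late library reached the lowest early one. Relative coverage was highest in 4C, at 1.05 ± 0.000118 (n = 2), and was 0.398 ± 0.00679 in 8C and 0.0748 ± 0.00171 in TE. It differed between the 8 groups grown without inhibitor (permutation test over 16 libraries, p = 1e-05, the smallest possible here, adjusted p = 2e-05). The mean placed share was 5.23% in GV, 2.36% in 2C, 1.68% in 4C, 3.49% in 8C and 2.28% in TE. Scaffold means were 1.76% in GV and 1.77% in 4C, so relative coverage rose between them as the placed share fell. In 8A the share was 2.38% and 2.28%, above both 8C libraries, and relative coverage exceeded that of 8C by 0.61 on the log2 scale, 7.14 times the pooled SD. Both 8A libraries were above both 8C libraries on 259 scaffolds (21.2%, placed 23.8%), and both 8C libraries were above on 104 (8.51%, placed 22.4%). Among features with an H3K27ac peak in these groups, 8A was higher on 57.4% of 451 scaffolds and 34.5% of placed windows. There 8C was higher on 23.1% and 32.4%. For H3K4me3 the 8A to 8C difference of relative coverage was 0.26, but the share itself was lower in 8A by a log2 value of -0.40, so its direction depended on the scaling. H3K4me3 was higher in both 8C libraries on 224 scaffolds (18.3%, placed 25.5%) and in both 8A libraries on 12 (0.982%, placed 0.375%). Among features with an H3K4me3 peak in these groups, 8C was higher on 42.0% of 533 scaffolds and 51.5% of placed windows. There 8A was higher on 2.25% and 0.758%.

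Early and late groups were also compared as 4 group means against 4. BL, ICM and TE all came from blastocysts, ICM and TE being parts of them, so the 4 late groups are not 4 separate stages. The exact test treats the group means as exchangeable, so its p-values do not measure the spread between independent stages. Late minus early relative coverage was -1.56 for H3K4me3, -2.59 for H3K27ac and -1.11 for H3K27me3 on the log2 scale. None passed after adjustment over the 3 marks (two-sided exact permutation test over 8 group means, p = 0.0571, 0.0286 and 0.0571, adjusted p = 0.0571 each, with 0.0286 the smallest possible p). The call depended on the scaling: without division by the placed share, H3K4me3 (-2.89) and H3K27me3 (-0.52) passed (two-sided exact permutation test, adjusted p = 0.0429 each). Each was adjusted beside the divided values of the other marks. H3K27ac shares without division also separated fully, with early group means of 1.39% to 1.77% and late ones of 0.171% to 0.534%. An adjustment with all 3 marks undivided is not given here. H3K4me3 also passed with the 50% of peaks of highest score (-2.27) and on scaffolds of 50 kb or more (-1.32). Taken per scaffold, H3K4me3 was lower in each late library on 188 scaffolds (15.4%, placed 16.1%), and H3K27ac on 70 (5.73%, placed 4.34%). The opposite order was met by 2 scaffolds for H3K4me3 (0.164%, placed 2.88%) and 2 for H3K27ac (0.164%, placed 4.58%). Many scaffolds had no peak of these marks. Among features with an H3K4me3 peak, 32.6% of 576 scaffolds and 23.2% of placed windows were lower late, and 0.347% and 4.16% higher. Among those with an H3K27ac peak, 14.8% of 473 scaffolds and 4.96% of placed windows were lower late, and 0.423% and 5.23% higher. H3K27me3 was lower in each late library on 16 scaffolds (1.31%, placed 0.935%) and higher on 16 (1.31%, placed 4.33%). Among the 290 rise scaffolds, 22.1% were lower in H3K4me3 by this rule and 9.66% in H3K27ac, against 13.3% and 4.51% of the other 932.

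The scaffolds richest in the active marks differed in how far they kept them and in their H3K9me3. On NKLS02002005.1 (113.6 kb) H3K4me3 covered 28.3% and 30.4% in GV and 4.18% and 5.41% in TE, while H3K9me3 covered 17.8% and 19.9% in GV and 57.9% and 50.2% in TE. H3K27ac there was still 8.63% and 8.89% in TE. NKLS02000412.1 (340.2 kb) was the one with steady H3K4me3, at 12.9% and 16.6% in GV, 7.23% and 10.9% in 8C and 9.41% and 9.20% in TE, and its H3K9me3 did not exceed 10.2% in any library. NKLS02001178.1 (145.8 kb) had its H3K9me3 low in the middle of the series: 59.5% and 67.4% in GV, 11.5% and 11.0% in 8C and 63.6% and 70.9% in ICM. Its H3K27ac was 20.9% and 23.6% in GV, 23.3% and 19.2% in 8C, 17.9% and 20.4% in MO and 0.754% and 1.89% in BL. NKLS02001289.1 (114.8 kb) carried all the marks, with H3K27ac at 34.1% and 30.1% and H3K9me3 at 40.8% and 38.7% in 8C, and ATAC at 16.4% to 19.5% in BL.

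NKLS02002210.1 (980.2 kb) was among the richest in H3K27ac, H3K27me3 and ATAC bases. Its H3K27me3 was 26.4% and 23.3% in ICM but 5.61% and 6.53% in TE, and 0 and 0.551% in GV. H3K9me3 there was 11.8% and 11.6% in GV and 18.5% and 20.8% in ICM. On NKLS02000767.1 (411.6 kb) H3K27me3 stayed between 28.5% and 35.2% from GV to 8C and was 13.7% and 13.9% in ICM, with H3K9me3 at 10.2% and 9.77% in GV and 34.7% and 36.9% in 8C. The longest scaffold, NKLS02002208.1 (9211.8 kb), makes up 13.6% of all scaffold length and was nearly bare. H3K9me3 covered 0.0890% of it in both GV libraries and at most 0.636%, in MO replicate 2. Without it the H3K9me3 share of the scaffolds was 18.5% and 20.6% in 8C and 37.1% and 31.9% in ICM. The second longest, NKLS02000910.1 (1573.2 kb), had H3K9me3 over 9.08% and 6.36% in GV, 11.2% and 13.2% in MO, 5.11% and 10.3% in ICM and none in TE.

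To see where the late mark was new, bases under H3K9me3 in all 8 late libraries and in none of the 8 early ones were collected. They formed 585 stretches on 330 scaffolds, 0.887 Mb in all, with a median of 1.2 kb. In the ARS-UCD1.2 build the longest was NKLS02000242.1:11801-22600 (10.8 kb), followed by NKLS02001634.1:7601-16600 (9 kb) and NKLS02001547.1:7001-14600 (7.6 kb). They were a small part of the late mark: all 8 late libraries shared 10.6 Mb, of which 79.7% was covered in both 8C libraries, 52.1% in both 8A, 49.6% in both 4C and 33.5% in both GV libraries. Most bases held by every late library were thus under H3K9me3 in 8C, and fewer were in 8A.

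In the groups before MO, the newly covered stretches carried more H3K4me3 and H3K27ac than the scaffolds at large. H3K4me3 covered 11.9% ± 1.40 (n = 2) of them in GV, 14.1% ± 0.514 in 4C and 13.9% ± 4.11 in 8C, against 2.74%, 2.90% and 3.32% of all scaffold bases. In MO it covered 2.27% ± 0.00399, in BL 1.01% and in ICM 0.358% ± 0.0837, against 0.909%, 0.325% and 0.298% of all scaffold bases. H3K27ac covered 8.94% ± 1.08 in GV, 4.96% ± 0.821 in 8C, 10.2% ± 0.937 in 8A and 0.955% ± 0.0837 in MO, where the scaffold average was 0.534%. H3K27me3 ran differently, with 18.4% ± 0.526 in GV, 3.12% ± 0.717 in 4C, 4.50% ± 0.654 in 8C and 20.9% ± 1.28 in MO. In 4C and 8C it was below the average of the scaffolds, 8.14% and 11.7%, and in MO it was above it. These stretches were chosen on H3K9me3 and not on the other marks, and no test was made of them.

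**Figure D5:**
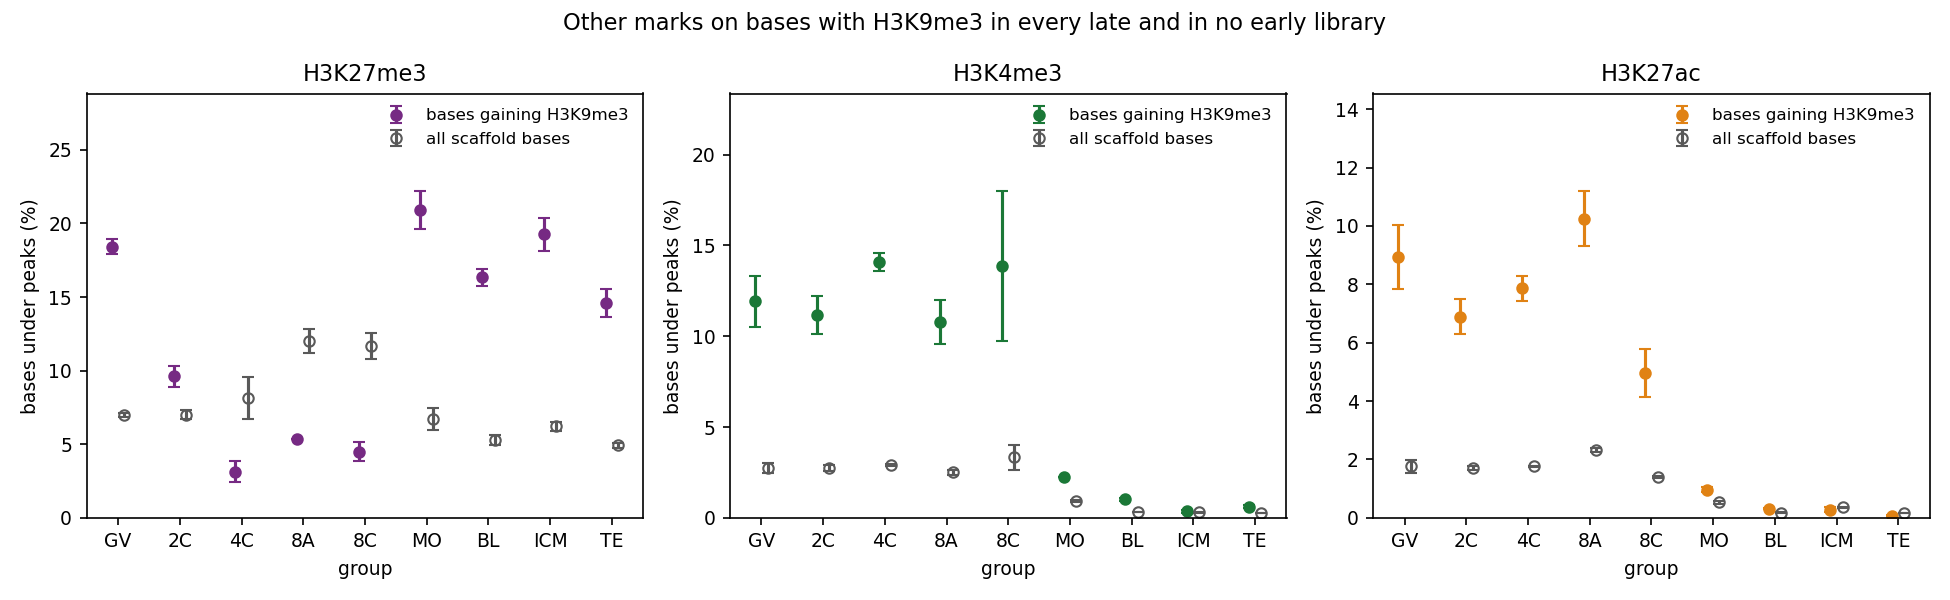
Share of bases under peaks of 3 marks (%, vertical axis from 0, one scale per panel) on the 0.887 Mb of scaffold bases with H3K9me3 in every late and in no early library (filled) and on all scaffold bases (open), by group, as mean and SD of 2 libraries. H3K4me3 is above the scaffold average in every group and nearest to it in ICM, H3K27ac is above it up to BL and below it in ICM and TE, and H3K27me3 is above it in GV, 2C and from MO on and below it in 4C, 8A and 8C.

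On scaffolds a larger share of H3K4me3 and H3K27ac bases lay under H3K9me3 than on placed chromosomes. Of the bases under H3K4me3 in both GV libraries, 55.1% were also under H3K9me3, against 0.711% on placed chromosomes, and in 8C the values were 70.8% and 10.7%. For H3K27ac they were 60.4% and 0.441% in GV and 57.1% and 2.23% in 8C. Shared bases do not show that a single nucleosome or cell held both marks. The dense scores given above were found on the same scaffolds, and the part that repeated sequence plays was not tested. Bases with one of the other marks in 8C were mostly under H3K9me3 in BL. Of those with H3K4me3 in both 8C libraries, 91.7% were under H3K9me3 in both BL libraries. Of those with H3K27ac it was 84.5%, and of those with H3K27me3 93.3%. H3K9me3 in both BL libraries covered 21.3% of all scaffold bases. On placed chromosomes the 3 values were 25.4%, 6.44% and 27.6%, over a covered share of 3.51%. Much of this overlap on scaffolds was already present in 8C. There 70.8% of the H3K4me3 bases, 57.1% of the H3K27ac bases and 88.3% of the H3K27me3 bases were under H3K9me3. H3K9me3 was not the only later mark on these bases. Of the scaffold bases with H3K4me3 in both 8C libraries, 61.7% were under H3K27me3 in both BL libraries. That mark covered 4.47% of scaffold bases there, and on placed chromosomes the 2 values were 48.4% and 9.48%.

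ICM and TE differed on the scaffolds. Jointly over the 5 assays, the covered bases separated the lineages (one-sided exact permutation test on Jaccard indices, p = 0.00123, the smallest that 810 arrangements allow, adjusted p = 0.00247). This test too includes H3K9me3, whose levels chose the subject, and is not given without it. Relative coverage was higher in ICM by a log2 value of 0.76 for H3K9me3, and by 0.41 for each of H3K27me3, H3K4me3 and H3K27ac, and in these 4 marks the libraries did not overlap. Leaving out ICM replicate 1 put the H3K9me3 value at 0.45, and leaving out ICM replicate 2 put it at 1.07. Without division by the placed share the values were 0.34 for H3K9me3, 0.34 for H3K27me3, 0.14 for H3K4me3 and 1.09 for H3K27ac. On 486 scaffolds both ICM libraries had more H3K9me3 than both TE libraries (39.8%, placed 7.15%), and on 97 both TE libraries had more (7.94%, placed 9.75%). For H3K27me3 the counts were 68 (5.56%, placed 9.57%) and 50 (4.09%, placed 13.3%), for H3K4me3 28 (2.29%, placed 4.4%) and 30 (2.45%, placed 11.8%), and for H3K27ac 48 (3.93%, placed 25.6%) and 6 (0.491%, placed 9.09%). For H3K9me3 the rise scaffolds include clear cases. NKLS02001177.1 had 56.4% and 44.7% in ICM and 34.1% and 27.2% in TE, and NKLS02000789.1 had 58.2% and 45.6% in ICM and 37.8% and 29.5% in TE. NKLS02000125.1 went the other way, with 20.0% and 18.8% in ICM and 34.3% and 34.8% in TE.

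Open chromatin was scarce on the scaffolds in all 9 ATAC libraries. Peaks covered 0.684% ± 0.0905 (n = 3) of scaffold bases in BL, 0.490% ± 0.0599 in ICM and 0.528% ± 0.0529 in TE. Relative coverage was 0.177 ± 0.0179 in BL, 0.145 ± 0.00322 in ICM and 0.154 ± 0.000808 in TE, and the 3 groups differed (exact permutation test over 9 libraries, p = 0.00357, the smallest possible, adjusted p = 0.00357). ICM was lower than TE by a log2 difference of -0.09, which was 0.04 in the opposite direction over scaffolds of 50 kb or more. The rise scaffolds had 0.305% ± 0.0398 in BL and the other scaffolds of 10 kb or more 0.950% ± 0.137, and without NKLS02002208.1 the rise scaffolds had 0.338% ± 0.0511. On 23 scaffolds the ICM libraries all exceeded the TE libraries (1.88%, placed 19%), and on 30 the reverse held (2.45%, placed 16.3%). Among features with an ATAC peak in ICM or TE, ICM was higher on 14.1% of 163 scaffolds and 24.8% of placed windows. There TE was higher on 18.4% and 21.4%.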

How the data were processed

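Each list gives peak positions and a deposited score whose name the lists do not give; the score was used only to rank peaks. The submitters' processing notes name SICER, SAMtools 1.9, Picard 2.26.10, BWA 0.7.9a, cutadapt 1.8.3 and Trim Galore 0.4.0, and the build ARS-UCD1.2; the lists themselves are named for epic2, so the caller was not settled. One list was deposited per library. Peak edges lie on a grid of 50 bp (ATAC, H3K4me3, H3K27ac) or 200 bp (H3K27me3, H3K9me3).

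Covered bases were summed per scaffold, library and mark with pandas 2.3.3, NumPy 2.4.6 and matplotlib 3.10.9 under Python 3.11.15, after the tests had been checked on simulated data. Relative coverage is the covered share of scaffolds over that of placed chromosomes, tested as log2. Stage tests permuted group labels (100000 resamples, or all arrangements for ATAC) on the ratio of between-group to within-group variance, and Benjamini-Hochberg adjustment ran over 4 assays, 3 late-minus-early tests and 2 joint tests. Pairs of groups with 2 libraries each are described with the pooled replicate SD over groups. Where 2 marks or stages are intersected, a base counts when both libraries of a group cover it.

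Named scaffolds are the 10 rise scaffolds with the largest gain, the 3 with the largest loss, the 3 with the most bases of each other assay, and the 3 longest. Members, rules and lists were chosen with earlier results of these data known. Groups and replicate numbers came from the sample titles.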

Additional observations from a re-analysis of the deposited data

How the results depend on the processing

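Over 20 results, 317 alternatives were run and 292 kept the direction and the side of the threshold. Without division by the placed share, late minus early was -2.89 for H3K4me3, -0.52 for H3K27me3 and 1.26 for H3K9me3. H3K4me3 and H3K27me3 then passed (exact permutation test, adjusted p = 0.0429), each adjusted beside the divided values of the other marks. In the same setting 8A minus 8C was -0.40 for H3K4me3, which reversed, and 0.75 for H3K27ac. There ICM minus TE was 0.14 for H3K4me3, 1.09 for H3K27ac and 0.34 for H3K9me3. With the 50% of peaks of highest score, late minus early H3K4me3 was -2.27 and passed, 8A minus 8C was 0.39 for H3K4me3 and 0.77 for H3K27ac, and ICM minus TE H3K4me3 was 0.22. On scaffolds of 50 kb or more, late minus early H3K4me3 was -1.32 and passed, 8A minus 8C was 0.13 for H3K4me3 and 0.33 for H3K27ac, ICM minus TE was 0.66 for H3K27ac and 0.0382 for ATAC, and 122 scaffolds carried the rise. By a late mean 10 points above the early mean, 798 did, and with the 8C libraries left out 608 did. The causes were not tested beyond what the settings themselves remove.

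Leaving out single libraries gave 290 to 439 rise scaffolds, 8A minus 8C H3K4me3 of 0.12 to 0.40, and ICM minus TE H3K9me3 of 0.45 to 1.07. Replicate numbers did not pair the libraries: deviations correlated above 0.1 in 6 (H3K4me3), 10 (H3K27ac), 5 (H3K27me3) and 6 (H3K9me3) of 28 pairs of groups. With a replicate block the stage tests gave permutation p of 2e-05 for H3K4me3 and H3K27ac, 0.00029 for H3K27me3 and 0.0277 for ATAC, which changed no call. Unknown depth and lengths taken from peaks limit every share.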
